A study of Mus musculus with 6 samples.

Results

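This account describes 34 genes of the cytokine system in mouse dorsal root ganglia, which hold the cell bodies of sensory neurons and their glia. They are interleukins, tumour necrosis factor (TNF), chemokines and transforming growth factor beta (TGF-β), with receptors for several of them. The genes were chosen by name, with earlier results of these data known. All 34 had a row among the 36793 gene identifiers of the deposited table. RNA came from lumbar (L3-L4) ganglia of 3 mice labelled as knockouts of the NMDA receptor (mice 4, 5 and 6) and 3 wild-type mice (mice 1, 2 and 3). The series title places the deletion of the gene for GluN1, the obligatory subunit of that receptor, in Schwann cells, which ensheath peripheral axons. The sources used here name neither the driver of the deletion nor the age, sex or strain of the mice. The labels name Schwann cells as the cell type, but neuron markers were abundant, with a summed level of 7525 to 8336 CPM (counts per 1000000 counts) in knockout libraries and 6553 to 8302 CPM in wild-type libraries, and the sample source is given as the ganglion. In such bulk RNA, a change in the number of cells of a type and a change in RNA per cell cannot be told apart.

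Cytokines are secreted proteins that immune cells, glia and neurons use to signal tissue damage. Interleukin-1 and TNF act through receptors that switch on the transcription factor NF-κB, the interleukin-6 family acts through STAT3, and TGF-β acts through SMAD proteins. Chemokines draw leukocytes into tissue along a concentration gradient. In sensory ganglia this system is known for the macrophage response to nerve damage and for the sensitisation of pain neurons.

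Total expected counts ran from 28526704 to 36249163 per library. Knockout libraries 5 and 6 differed by no more than sampling noise, their mean chi-square over genes being 1.15 and 0 of 10258 genes differing at a false discovery rate of 0.05, whereas the other 14 pairs of libraries had 3382 to 7317 differing genes. Libraries 5 and 6 were therefore summed and counted as 1 sample, which leaves n = 2 for knockout and n = 3 for wild type. The labels give each library a mouse number of its own. Each edgeR p-value weighs a group difference against a spread that is estimated from these 5 samples and moderated across genes. Grin1, the targeted gene, stood at 82.1, 118 and 117 CPM in knockout libraries 4, 5 and 6, against 68.8, 115 and 75.0 CPM in wild-type libraries 1, 2 and 3 (edgeR quasi-likelihood adjusted p = 0.812). Neurons also express Grin1 and the title limits the deletion to Schwann cells, so its level in ganglion RNA does not check the labels. Haemoglobin genes took 1.52% of the counts of knockout library 4 and 0.304 to 0.598% of those of the other libraries.

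The promoters of 4 genes on which the results below turn are shown first, namely the 3 measured TNF receptor genes and Il6. Each line gives the 250 bases before the RefSeq start on GRCm38.p6, read from 5′ to 3′ on the strand of the gene. RefSeq and GENCODE, which gave the gene positions, place some of these starts differently. The Tnfrsf1a window lies inside the GENCODE gene, which starts at 125349362. The Tnfrsf12a window overlaps the GENCODE gene, which starts at 23677468 on the minus strand. Capitals mark every match, on either strand, to 4 fixed motifs. These are GGG followed by NN and TTTCC for NF-κB, TTCNNNGAA for STAT factors, TGANTCA for AP-1 and GGGCGG for the GC box bound by SP1, and N stands for any base.
Tnfrsf12a, chr17:23677450-23677699, minus strand: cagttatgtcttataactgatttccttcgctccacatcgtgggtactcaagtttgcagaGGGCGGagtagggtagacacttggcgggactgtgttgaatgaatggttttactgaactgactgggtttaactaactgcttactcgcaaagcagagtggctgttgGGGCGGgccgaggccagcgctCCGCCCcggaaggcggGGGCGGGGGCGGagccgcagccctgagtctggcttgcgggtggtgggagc
Tnfrsf1a, chr6:125349473-125349722, plus strand: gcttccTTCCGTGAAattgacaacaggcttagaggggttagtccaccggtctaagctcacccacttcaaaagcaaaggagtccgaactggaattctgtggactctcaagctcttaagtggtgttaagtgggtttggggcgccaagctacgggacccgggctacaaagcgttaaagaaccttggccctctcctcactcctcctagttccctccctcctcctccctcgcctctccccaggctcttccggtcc
Tnfrsf1b, chr4:145246871-145247120, minus strand: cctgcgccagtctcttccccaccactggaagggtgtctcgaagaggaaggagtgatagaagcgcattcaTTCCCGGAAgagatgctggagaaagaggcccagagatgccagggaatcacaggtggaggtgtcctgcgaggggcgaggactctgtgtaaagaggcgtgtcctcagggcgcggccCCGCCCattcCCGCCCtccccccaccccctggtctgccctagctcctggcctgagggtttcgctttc
Il6, chr5:30012864-30013113, plus strand: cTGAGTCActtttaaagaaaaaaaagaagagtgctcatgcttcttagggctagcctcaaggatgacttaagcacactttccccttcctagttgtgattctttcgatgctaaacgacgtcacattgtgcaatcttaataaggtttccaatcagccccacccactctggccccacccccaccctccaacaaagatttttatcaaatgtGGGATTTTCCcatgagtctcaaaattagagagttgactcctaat

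The 4 promoters shown differed in the motifs they held. Tnfrsf12a held 5 GC boxes, Tnfrsf1b held 2 GC boxes and 1 STAT motif, and Tnfrsf1a held 1 STAT motif. None of the 3 receptor promoters matched the NF-κB motif. The Il6 promoter held 1 NF-κB motif and 1 AP-1 motif. RefSeq promoters were found for 27 of the 34 genes, as 32 start sites of 300 bases, 250 before and 50 after the start. Osm, Il10rb, Ccl4, Ccl5, Ccl7, Cxcl16 and Tgfb3 had no entry. The NF-κB motif was found in 6 of the 32, which is 18.8%, against 1.63% of all 32851 promoters. Those 6 belong to 5 genes, Il6, Cxcl1, Cxcl2, Ccl9 and Il1rn, each of which encodes a ligand or a secreted antagonist. The STAT motif was in 9.38% of the 32 and in 8.3% of all promoters. The AP-1 motif was in 15.6% of the 32, against 7.81% of all. The GC box was in 28.1% of the 32 and in 35.7% of all. A match describes letters in a window and does not show that a factor binds there.

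Both receptors and ligands were among the genes with the highest levels. On the TPM scale (transcripts per 1000000 transcripts), which divides by transcript length, Il10rb had the highest mean of the 34 genes. Il10rb encodes the shared second chain of the interleukin-10 receptor, and its level was 64.9, 68.0 and 67.3 TPM in knockout libraries 4, 5 and 6, against 67.6, 70.0 and 73.8 TPM in wild-type libraries 1, 2 and 3. Its groups overlapped. Its reads can be shared with Gm21970, an overlapping gene on the same strand. Tnfrsf1a followed at a mean of 26.7 TPM over the 6 libraries, then Tgfbr2 at 18.1, Cxcl12 at 16.7, Tgfbr1 at 13.3 and Tnfrsf12a at 12.7 TPM. The last 4 of these ran close together, and the library ranges of Tgfbr2, 13.6 to 22.6 TPM, and Cxcl12, 12.7 to 18.9 TPM, overlapped. Tgfbr1 ranged from 10.5 to 14.5 TPM and Tnfrsf12a from 7.49 to 16.6 TPM, which also overlap. Cxcl12, a chemokine that holds CXCR4-bearing cells in place, was among these 6 as a ligand. The ligand Tgfb3, at a mean of 12.5 TPM and a range of 8.68 to 15.8 TPM, lay next to Tnfrsf12a and overlapped it.

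**Figure D1:**
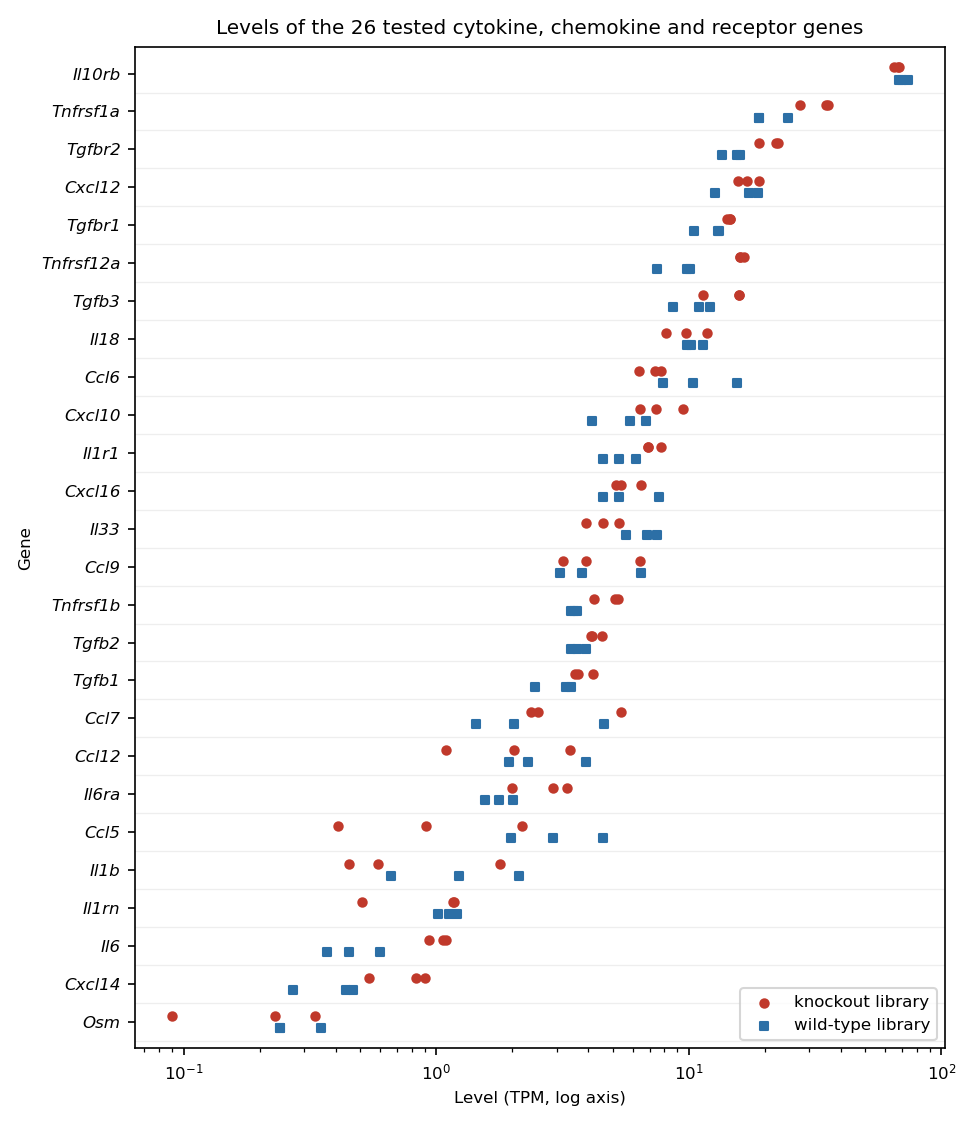
Level in TPM, on a log axis, of the 26 genes that passed the filter on low counts, ordered by mean. Each point is 1 library, with knockout libraries as circles above and wild-type libraries as squares below. Il10rb lies near 68.6 TPM and Osm, at the bottom, near 0.247 TPM, while the knockout points of Tnfrsf12a, Tnfrsf1b and Tgfbr2 lie to the right of all wild-type points.

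Of the 34 genes, 8 were near the limit of detection in both genotypes, all of them ligands. A filter on low counts, which asks for about 0.314 CPM in at least 2 samples, removed these 8, namely Il1a, Tnf, Ccl3, Ccl4, Ccl8, Cxcl1, Cxcl2 and Cxcl13, none with more than 9 counts in any library. Tnf, the founding member of its family, had 0, 0 and 1 counts in knockout libraries 4, 5 and 6, against 3, 4 and 1 counts in wild-type libraries 1, 2 and 3. Cxcl2, a neutrophil attractant, had 1, 0 and 1 counts in knockout and 0, 2 and 0 counts in wild type. A difference in these 8 genes was not detectable at this depth. The other 26 genes passed the filter. Il6 passed it through the knockout samples alone, so for Il6 a positive difference was built into the selection. The 25 others each had samples of both groups over the minimum.

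Knockout ganglia were set against wild-type ganglia to ask which transcripts differ when Schwann cells lack the receptor subunit. Of the 26 genes tested, 0 passed at an adjusted p of 0.05 in the edgeR quasi-likelihood test, where 0.0952% of all 16809 genes passed, 0.0595% higher and 0.0357% lower. An unadjusted p under 0.05 was reached by 9 of the 26, or 34.6%, against 9.14% of all genes. Higher in the knockout were 8 of them, Tnfrsf12a, Tgfbr2, Tnfrsf1b, Tnfrsf1a, Cxcl12, Il1r1, Il6 and Cxcl14, against a background of 5.15% of all genes. Il33 was the 1 lower gene, against 3.99% of all genes. The median log2 fold change over the 26 was 0.24, and that over all genes tested was 0.00. A positive value was found for 19 of the 26, against 50.2% of all genes. The counts of 9, 8 and 19 include Il6, whose positive difference was built into the selection. Because the genes were chosen with earlier results of these data known, the shares here and below describe the list and do not test it. The count of 9 became 5 without wild-type library 1 and 4 without knockout libraries 5 and 6. With DESeq2 in place of edgeR it was 7, and Tnfrsf12a passed after adjustment (DESeq2 adjusted p = 0.0263), where 1.52% of all genes passed. With libraries 5 and 6 kept as separate samples, 0 of these genes passed in edgeR, where 0.871% of all genes passed.

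**Figure D2:**
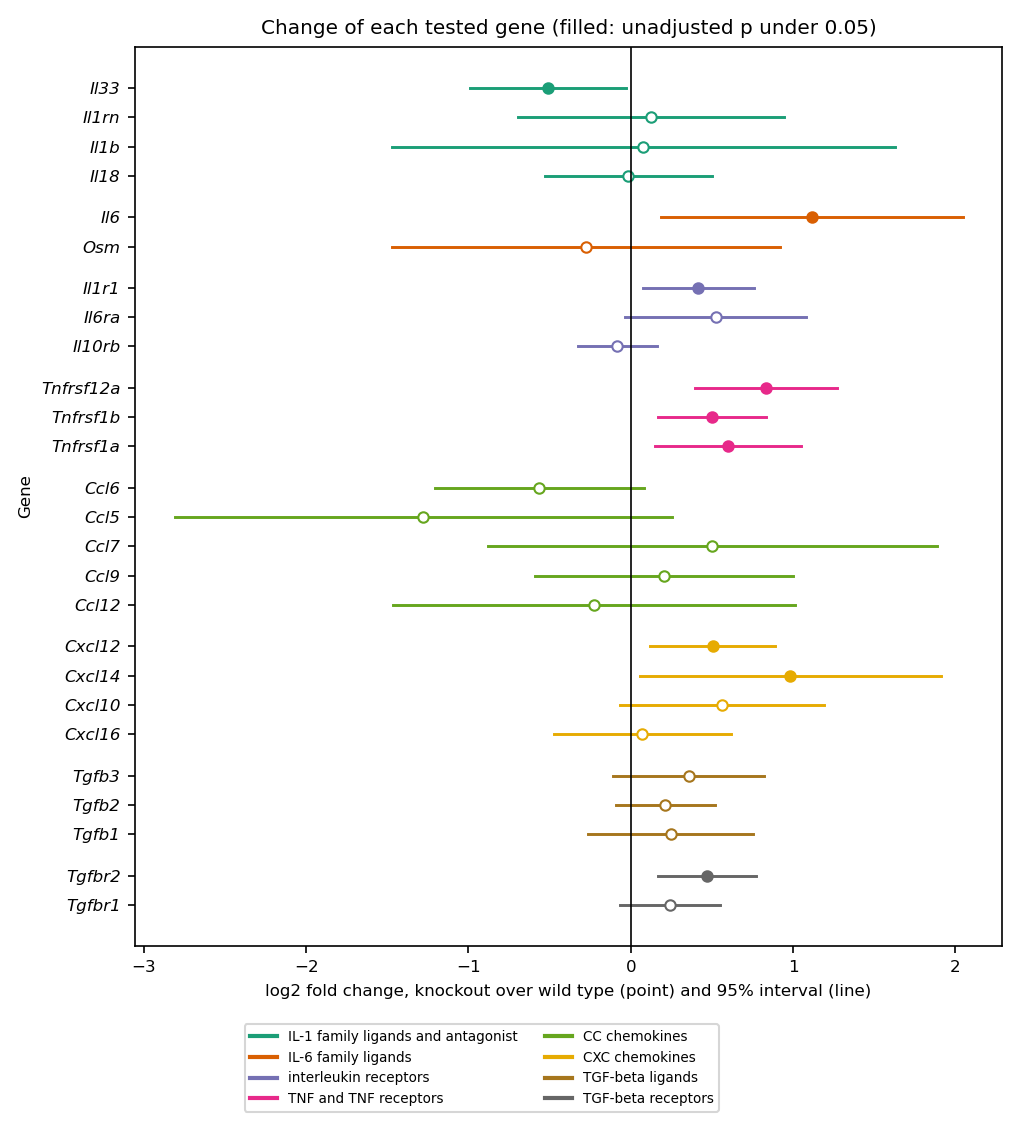
The log2 fold change, knockout over wild type, of each of the 26 tested genes (point) with its 95% interval (line), coloured by role. Filled points are the 9 genes at an unadjusted p under 0.05. The 3 TNF receptors and Tgfbr2 lie right of 0 with intervals that exclude 0, and the CC chemokines lie on both sides of 0 with wide intervals.

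Receptor genes lay mostly above 0. All 8 receptor genes were tested, 7 with a positive log2 fold change, and their median was 0.48. All 7 had no overlap between the libraries of the groups. Over the 26 genes tested, 12 were without overlap and higher and 1 without overlap and lower, where 10.3% and 13.9% of all genes were. Together they are 13 of the 26, or 50%, against 24.2% of all genes. Il6, which passed the filter through the knockout samples alone, is counted in the 12 and in the 13. Without knockout libraries 5 and 6, a single knockout library is set against 3, where groups separate more easily. The share of all genes in that setting was not computed, so no count is given for it. Of the 18 ligand and antagonist genes tested, 12 were positive and 6 negative, and their median was 0.17.

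The 3 TNF receptors tested all lay above 0 with intervals that exclude 0. Tnfrsf12a (chromosome 17, 23675445 to 23677468, GRCm38) encodes Fn14, the receptor for the cytokine TWEAK, which is known to be induced in injured tissue. Its level was 7.06, 6.29 and 6.48 CPM in knockout libraries 4, 5 and 6, against 3.09, 4.16 and 4.03 CPM in wild-type libraries 1, 2 and 3. Every knockout library lay above every wild-type library. The means were 6.72 ± 0.483 CPM in knockout (SD, n = 2) and 3.76 ± 0.580 CPM in wild type (SD, n = 3). The fold change was 1.78, with a log2 value of 0.84 and a 95% interval of 0.40 to 1.27 (edgeR quasi-likelihood adjusted p = 0.272). Over 15 alternative settings the log2 value ran from 0.73 to 0.92 and the adjusted p from 0.0263 to 0.699, the lowest of them in DESeq2.

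Tnfrsf1a (chromosome 6, 125349362 to 125362484) encodes the TNF receptor with a death domain. It stood at 26.2, 32.8 and 32.2 CPM in knockout libraries 4, 5 and 6, against 16.8, 23.8 and 17.6 CPM in wild-type libraries 1, 2 and 3. The groups did not overlap, though knockout library 4 and wild-type library 2 lay close together. The log2 fold change was 0.60 with an interval of 0.15 to 1.05 (edgeR adjusted p = 0.436). Tnfrsf1b (chromosome 4, 145213463 to 145246870) encodes the second TNF receptor, which lacks a death domain. It stood at 9.43, 8.75 and 7.24 CPM in knockout libraries, against 6.31, 6.25 and 5.89 CPM in wild-type libraries. The wild-type libraries were within a narrow range, with a coefficient of variation of 3.71%, and all knockout libraries lay above it. The log2 fold change was 0.50 with an interval of 0.17 to 0.84 (edgeR adjusted p = 0.375). Of the 3 receptors, Tnfrsf12a had an unadjusted edgeR p under 0.05 in each fit with samples left out. Tnfrsf1a missed it without wild-type library 3 and without knockout libraries 5 and 6, and Tnfrsf1b missed it without knockout library 4.

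Among the interleukin receptors, Il1r1, the signalling receptor of interleukin-1, stood at 15.6, 14.9 and 16.7 CPM in knockout libraries 4, 5 and 6, against 11.6, 10.3 and 13.4 CPM in wild-type libraries 1, 2 and 3. The knockout libraries were all above the wild-type ones. The log2 fold change was 0.42 with an interval of 0.07 to 0.76 (edgeR adjusted p = 0.481). Il6ra, the chain that binds interleukin-6, was at 3.12, 4.35 and 4.90 CPM in knockout libraries and at 2.70, 2.41 and 3.03 CPM in wild-type libraries. The groups were separated narrowly by knockout library 4 and wild-type library 3, and the interval of the log2 fold change, -0.03 to 1.08, included 0. Il10rb had a log2 fold change of -0.08 with an interval of -0.32 to 0.16, the narrowest of the 26.

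Interleukin ligands differed among themselves. Il6, the pro-inflammatory ligand of Il6ra, had 15, 15 and 16 counts in knockout libraries 4, 5 and 6, against 7, 9 and 5 counts in wild-type libraries 1, 2 and 3. All knockout counts were above all wild-type counts, but they are few, and Il6 passed the filter through the knockout samples alone. Its positive difference was therefore built into the selection. The 95% interval of its log2 fold change of 1.12 ran from 0.19 to 2.04 (edgeR adjusted p = 0.487). Il33, a nuclear alarmin of the interleukin-1 family that damaged cells release, was the 1 tested gene without overlap on the lower side. It stood at 6.24, 4.72 and 4.39 CPM in knockout libraries, against 8.56, 6.57 and 7.78 CPM in wild-type libraries. The gap between knockout library 4 and wild-type library 2 was small beside the spread within each group. The log2 fold change was -0.51 with an interval of -0.99 to -0.03 (edgeR adjusted p = 0.522), and over the alternatives it ran from -0.74 to -0.29. Fibroblast marker genes, summed, were at 692 to 788 CPM in knockout and 691 to 860 CPM in wild type. They did not move together, with 3 of 6 positive and 0 passing in the edgeR test. Col1a1 was at 0.61 and Col1a2 at 0.43 on the log2 scale, both without overlap, while Dcn was at -0.47 and Pdgfra at -0.25. Their part in the Il33 value was not tested. Il18, a ligand matured by the inflammasome, had a log2 fold change of -0.02 with an interval of -0.53 to 0.50, and Il1rn, the interleukin-1 receptor antagonist, one of 0.12 with -0.70 to 0.95. Osm, oncostatin M, had at most 12 counts in a library.

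**Figure D3:**
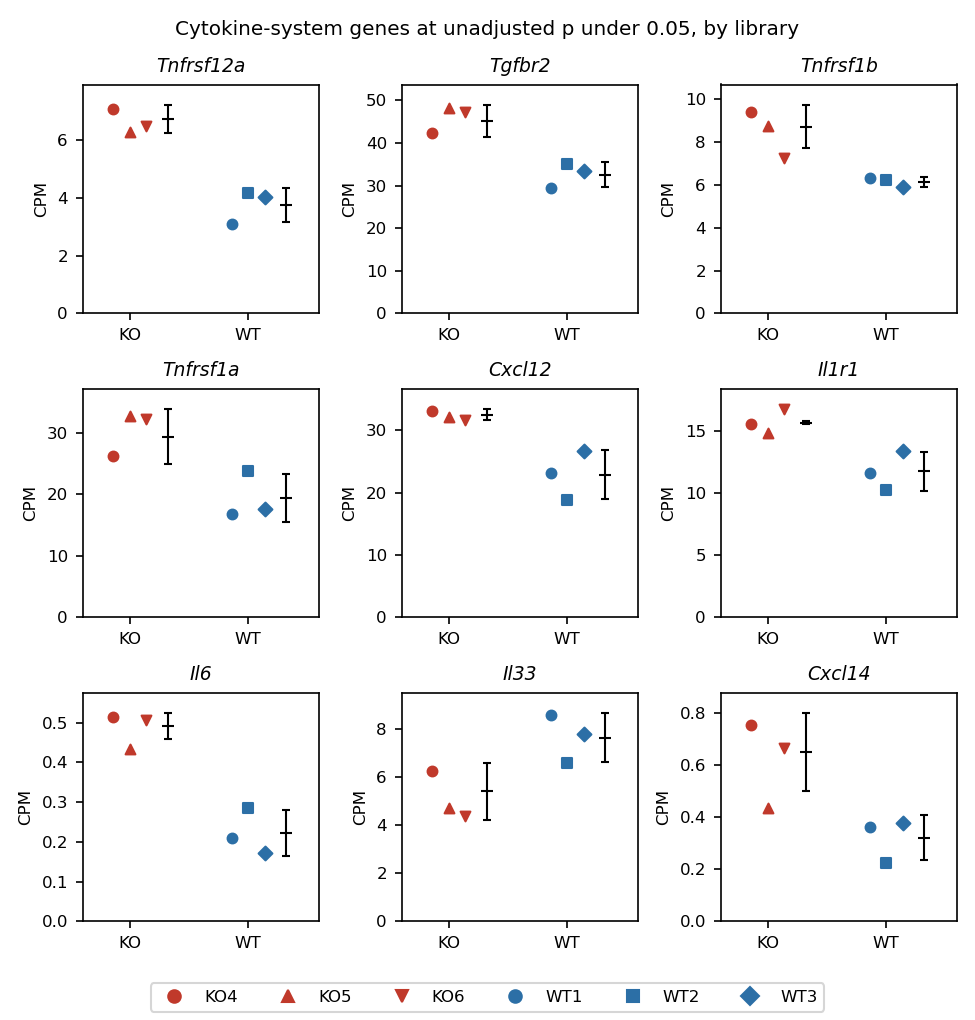
Level in CPM, by library, of the 9 genes at an unadjusted p under 0.05, with knockout (KO) on the left and wild type (WT) on the right of each panel. Bars give the mean ± SD over 2 knockout samples, libraries 5 and 6 counted as 1, and over 3 wild-type samples. In each of the 9 panels the libraries of the groups do not overlap, and Il33 is the one panel with the knockout points below. Il6 passed the filter on low counts through the knockout samples alone.

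The CC chemokines had no gene at an unadjusted p under 0.05. All 8 lie in clusters on chromosome 11, from 82045712 for Ccl7 to 83664683 for Ccl4, and 5 passed the filter. Ccl6, a myeloid chemokine found in mouse, was at 3.02, 3.30 and 2.59 CPM in knockout libraries 4, 5 and 6, against 5.83, 3.27 and 4.13 CPM in wild-type libraries 1, 2 and 3. The groups overlapped at knockout library 5 and wild-type library 2, and the log2 fold change was -0.56 with an interval of -1.21 to 0.08. Ccl5, a T cell and monocyte attractant, had 14, 3 and 6 counts in knockout and 14, 20 and 28 counts in wild type. Its log2 fold change of -1.28 had an interval of -2.81 to 0.25. The value was -2.27 without knockout library 4 and -0.48 without knockout libraries 5 and 6. The 8 lymphocyte and natural killer cell markers, cells known to make Ccl5, summed to 3.86 to 6.21 CPM in knockout libraries and 6.48 to 7.72 CPM in wild-type libraries. The 5 mast cell markers summed to 3.57 to 6.24 CPM in knockout and 6.70 to 12.8 CPM in wild type. In the edgeR test 0 markers of either list passed, and their part in the chemokine values was not tested. Ccl12, a ligand of CCR2 in mouse, was at -0.23, Ccl9, a ligand of CCR1, at 0.21 and Ccl7, another CCR2 ligand, at 0.50 on the same scale. The last 2 turned negative without knockout library 4, to -0.15 for Ccl9 and -0.17 for Ccl7.

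The ligands Il1b and Ccl7 were each high in 1 library of each genotype. Il1b, the main interleukin-1 ligand of activated myeloid cells, was at 1.06, 0.232 and 0.348 CPM in knockout libraries 4, 5 and 6, against 0.841, 0.349 and 0.585 CPM in wild-type libraries 1, 2 and 3. Ccl7 was at 1.89, 0.840 and 0.790 CPM in knockout, against 1.56, 0.698 and 0.482 CPM in wild type. Both were highest in knockout library 4 and next highest in wild-type library 1. The 6 neutrophil markers, summed, showed the same order at the top, with 455, 171 and 169 CPM in knockout and 430, 303 and 119 CPM in wild type. S100a8, S100a9, Ngp and Camp each had that order, while Retnlg was highest in wild-type library 1 and Ly6g in knockout library 6. The 10 macrophage markers summed to 219, 137 and 138 CPM in knockout and 219, 167 and 155 CPM in wild type. Lyz2 alone gave 121 CPM of the sum in knockout library 4. Cd163 went the other way, lowest in wild-type library 1 and next lowest in knockout library 4. None of these markers was at 0 in any library, 0 of the 16 passed in the edgeR test and 0 were at an unadjusted p under 0.05. The log2 fold change of Il1b was 0.08 with an interval of -1.47 to 1.63, and it became -1.04 without knockout library 4. The part of these cells in the ligand values was not tested.

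**Figure D4:**
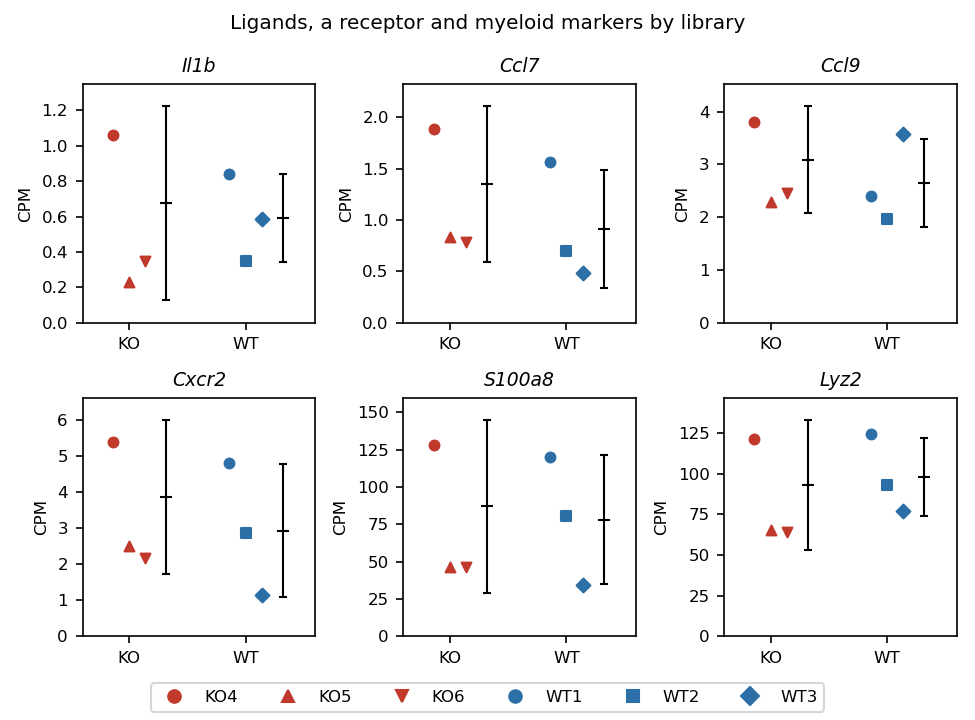
Level in CPM, by library, of the ligands Il1b, Ccl7 and Ccl9, the chemokine receptor Cxcr2 and the myeloid markers S100a8 and Lyz2, knockout (KO) on the left of each panel and wild type (WT) on the right, with mean ± SD over 2 and 3 samples. Knockout library 4 and wild-type library 1 have the highest values in all panels except that of Ccl9, where wild-type library 3 is second.

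All 4 CXC chemokines tested were positive, and 2 had an unadjusted p under 0.05. Cxcl12 (chromosome 6, 117168535 to 117181367) was at 33.1, 32.2 and 31.5 CPM in knockout libraries 4, 5 and 6, against 23.2, 18.8 and 26.6 CPM in wild-type libraries 1, 2 and 3. On this scale the groups did not overlap and the log2 fold change was 0.51 with an interval of 0.12 to 0.89 (edgeR adjusted p = 0.44). In TPM, however, Cxcl12 was at 18.9, 16.9 and 15.7 in knockout libraries, against 17.3, 12.7 and 18.7 in wild-type libraries. Those values overlapped, and the log2 difference in TPM was 0.13 in limma. TPM divides by a gene length that RSEM estimates in each library. Endothelial markers, cells known to make Cxcl12, summed to 67.9, 63.0 and 63.1 CPM in knockout and 51.5, 46.8 and 55.2 CPM in wild type, with 5 of 5 positive and 0 passing, and their part in the Cxcl12 and TNF receptor values was not tested.

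Cxcl14, a chemokine of epithelia and fibroblasts, had 22, 15 and 21 counts in knockout libraries 4, 5 and 6, against 12, 7 and 11 counts in wild-type libraries 1, 2 and 3. The lowest knockout and highest wild-type counts were near each other, and the log2 fold change of 0.98 had an interval of 0.05 to 1.91 (edgeR adjusted p = 0.527). Cxcl10, an interferon-induced chemokine, was at 4.56, 2.95 and 3.41 CPM in knockout, against 3.03, 2.00 and 2.76 CPM in wild type. The groups overlapped and the interval was -0.07 to 1.19. Cxcl10 overlaps Art3, a gene on the opposite strand with 1903 to 2679 counts per library, and since the sources used here do not name the strand setting of the quantification, a share of reads from Art3 cannot be told apart. Cxcl16, a membrane-bound chemokine, was at 0.07 on the log2 scale with an interval of -0.48 to 0.62.

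TGF-β receptors and ligands were all positive, by small amounts. Tgfbr2 (chromosome 9, 116084293 to 116175360), the receptor that binds the ligand first, was at 42.4, 48.2 and 47.2 CPM in knockout libraries 4, 5 and 6, against 29.3, 35.1 and 33.3 CPM in wild-type libraries 1, 2 and 3. The lowest knockout library was clear of the highest wild-type library. The means were 45.0 ± 3.77 CPM in knockout (SD, n = 2) and 32.6 ± 2.96 CPM in wild type (SD, n = 3), and the log2 fold change was 0.47 with an interval of 0.17 to 0.77 (edgeR adjusted p = 0.368). Tgfbr1, the signalling partner of Tgfbr2, was at 38.6, 36.9 and 36.0 CPM in knockout, against 33.4, 27.9 and 33.9 CPM in wild type. Its groups were also separate, with a log2 fold change of 0.24 and an interval of -0.07 to 0.55. Of the ligands, Tgfb1 was at 0.25, Tgfb2 at 0.21 and Tgfb3 at 0.36 on the log2 scale, each with an interval that included 0. Tgfb1 and Tgfb2 had separate groups, while those of Tgfb3 overlapped. Tgfb3 shares its locus with Ttll5 on the opposite strand, which had 1658 to 2466 counts per library. Schwann cell markers, cells with TGF-β receptors, summed to 4717 to 4819 CPM in knockout and 3563 to 4111 CPM in wild type, with 6 of 6 positive and 0 passing. Satellite glia markers summed to 728 to 771 CPM in knockout and 595 to 673 CPM in wild type, and the part of either cell type in these values was not tested.

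Other genes of the same pathways were read from a list of 53, of which 47 were tested. In the edgeR test 0 of these passed, 3 were at an unadjusted p under 0.05 and all 3 were higher in the knockout. That is 6.38% of the 47, against 9.14% of all genes. Groups without overlap were found for 8 of the 47, 7 higher and 1 lower, against 24.2% of all genes. Socs3, a feedback inhibitor of STAT3 signalling, was at 10.4, 14.3 and 14.2 CPM in knockout libraries 4, 5 and 6, against 5.50, 8.22 and 5.34 CPM in wild-type libraries 1, 2 and 3. Its groups did not overlap and the log2 fold change was 0.96 with an interval of 0.39 to 1.53 (edgeR adjusted p = 0.317). In DESeq2 Socs3 passed, with an adjusted p of 0.0264.

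Among the listed genes of the NF-κB pathway, Nfkbia, its inhibitor and target, and Nfkb2, a subunit, were at an unadjusted p under 0.05. Nfkbia was at 25.6, 28.1 and 30.2 CPM in knockout libraries 4, 5 and 6, against 17.8, 19.4 and 22.6 CPM in wild-type libraries 1, 2 and 3 (log2 fold change 0.46, edgeR adjusted p = 0.418). Nfkb2 was at 5.93, 6.63 and 6.83 CPM in knockout, against 3.85, 4.89 and 4.30 CPM in wild type (log2 fold change 0.55, edgeR adjusted p = 0.428). Neither gene had overlapping groups. The subunits Nfkb1, at 0.21, and Rela, at 0.25, and the inhibitor Tnfaip3, at 0.32 on the log2 scale, had overlapping groups and missed an unadjusted p of 0.05. Irak4, a kinase of interleukin-1 signalling, at 0.40, and Eng, a TGF-β co-receptor, at 0.48 on the log2 scale, were next by p and missed an unadjusted p of 0.05. Il1r2, the decoy receptor of interleukin-1, followed at 1.58, 1.25 and 1.04 CPM in knockout libraries, against 0.811, 0.920 and 0.895 CPM in wild-type libraries. Its groups did not overlap, and the interval of its log2 fold change of 0.62 ran from -0.03 to 1.27. Of 18 signal transducers 12 were positive and 6 negative, the median being 0.09. The 11 tested interleukin receptors and ligands of the list had 6 positive and 5 negative values, the median being 0.005. Osmr, an oncostatin M receptor, was at -0.28 with an interval of -0.57 to 0.02, its groups without overlap and the knockout lower. All 3 TGF-β co-receptor and latency genes were positive, the median being 0.29. Of 9 tested chemokine receptors 4 were positive and 5 negative, the median being -0.02, and none had separate groups. Ccr2, the monocyte receptor for Ccl7 and Ccl12, was at -0.22 with an interval of -1.11 to 0.66, and Cxcr4, the receptor of Cxcl12, at 0.10 with -0.40 to 0.61. The median over the 47 tested genes of the list was 0.10.

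**Figure D5:**
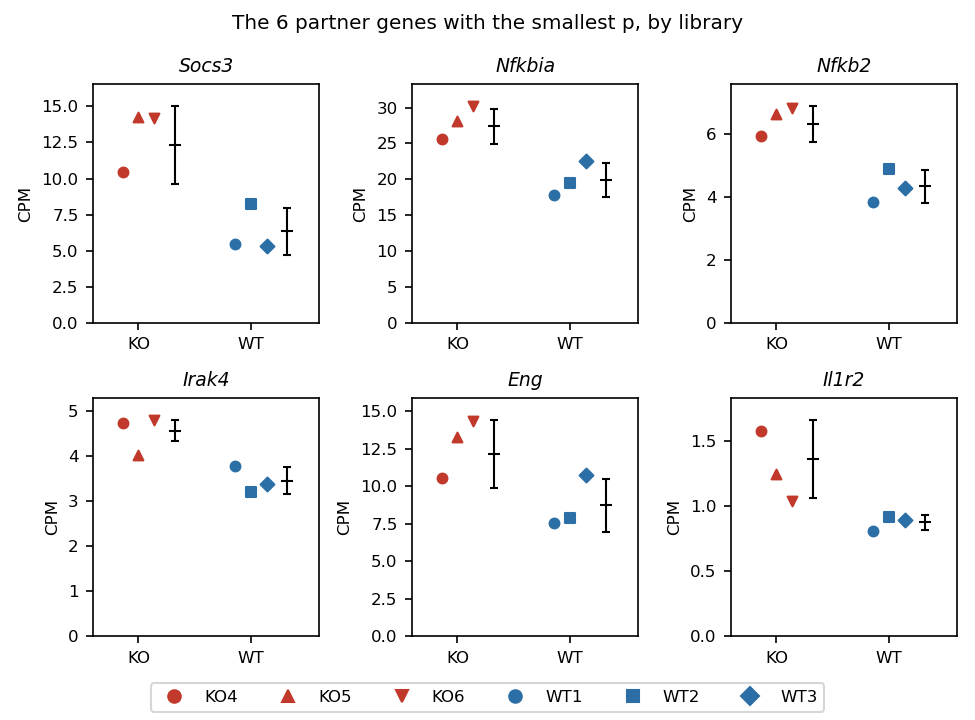
Level in CPM, by library, of the 6 pathway partners with the smallest p, knockout (KO) on the left of each panel and wild type (WT) on the right, with mean ± SD over 2 and 3 samples. The knockout libraries lie above all wild-type libraries for Socs3, Nfkbia, Nfkb2, Irak4 and Il1r2, and the groups overlap for Eng. Over all 47 tested partners, 8 had groups without overlap, against 24.2% of all genes.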

How the data were processed

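Libraries were made with a stranded mRNA kit from RNA with an integrity number above 8.0, per the labels' protocols. The submitters' processing notes name Trimmomatic 0.38, STAR 2.6.0a and RSEM 1.3.0, with GRCm38 as the build. The sources used here name no annotation release or strand setting. The authors deposited RSEM expected counts (estimated counts, not normalized), TPM and FPKM per gene and library, per the file headers; FPKM was not tested. Symbols and positions are from GENCODE vM21 (35243 of 36793 identifiers matched), promoters from RefSeq.

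Expected counts were rounded, filtered with filterByExpr, scaled by TMM and tested with edgeR 4.0.16 in R 4.3.3 (quasi-likelihood, genotype as the only term, two-sided, Benjamini-Hochberg over all 16809 genes), after a check on simulated counts. CPM are TMM-scaled, with libraries 5 and 6 sharing the factor of their sum. Standard errors are the log2 fold change divided by the root of the F statistic, and 95% intervals follow from them; both are approximate at low counts and cover the spread between samples. Alternatives were DESeq2 1.42.0, limma 3.58.1 (voom, and log2(TPM + 0.1)), RLE factors, no filter, a GC offset, other treatments of libraries 5 and 6, and single replicates left out. Values in every library are given for the 12 genes with the smallest p and the 6 with the highest mean TPM. They are also given for the 6 pathway partners with the smallest p, of which Irak4 and Eng are only plotted. Of the genes under the filter, Tnf and Cxcl2 have their counts in every library given. Values in every library for Il1b, Ccl7 and Ccl5, the motifs and the shown promoters were chosen after values were seen. The genes and lists were chosen with earlier results of these data known. 1 gene of the partner list is not reported here.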

Additional observations from a re-analysis of the deposited data

How the results depend on the processing

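No paired analysis was possible because knockout and wild type have different mouse numbers. The 16 genes called among all genes became 81 with no filter on low counts, 255 in DESeq2 and 144 with 6 separate libraries, where libraries 5 and 6 both count, and 7 to 16 with replicates left out. The cause was not tested for the first 2. Of the cytokine-system genes 0 were called under every edgeR or limma alternative, and 1, Tnfrsf12a at 0.85 on the log2 scale, in DESeq2. Of the pathway partners 0 were called under every edgeR or limma alternative, and 1, Socs3, in DESeq2. Genes at an unadjusted p under 0.05 numbered 5 on TPM and 4 to 10 with replicates left out, and the median log2 fold change of the genes tested was 0.20 to 0.36 with replicates left out (25 genes, without Osm, where wild-type library 1 was left out). Of 388 alternative values of single genes, 367 kept direction and call, 1 gained the call and 20 changed sign, in 8 genes. Il1b, at 0.08, was at -0.27 in voom and on TPM and -0.15 with 6 libraries, and ran from -1.04 to 0.44 with single replicates left out, and was 0.83 without both knockout libraries 5 and 6. Il18, at -0.02, was at 0.035 after GC correction and ran from -0.25 to 0.067 (0.21 without both). Il1rn, at 0.12, was at -0.15 on TPM and ran from -0.052 to 0.30 (0.29 without both). With replicates left out, Ccl7 ran from -0.17 to 1.16 (1.03 without both), Ccl9 from -0.15 to 0.48 (0.52 without both), Ccl12 from -0.89 to 0.15 (0.35 without both), Cxcl16 from -0.12 to 0.24 (0.26 without both) and Osm from -0.77 to -0.0020 (0.25 without both). Depth limits Il6, Cxcl14, Osm and the 8 genes removed by the filter. Without knockout library 4, or 5 and 6, the 1 knockout sample left takes its spread from wild type.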
